A study of Mus musculus with 12 samples.

Results

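Toll-like receptors (TLRs) and the NOD-like receptor Nlrp3 are innate sensors of microbial and danger signals, and their transcripts were examined here in sorted mouse CD4+ T cells. The set held 10 genes, Tlr1, Tlr2, Tlr3, Tlr4, Tlr6, Tlr7, Tlr9, Tlr11, Tlr12 and Nlrp3, out of 17523 genes in the table. They were chosen by name, with earlier results of these data known, and matched by Entrez identifier. All 10 were present and all 10 passed the filter on low values, as did 15587 genes in all. The libraries came from spleens of Gr/fr mice on the C57BL/6 strain, in which the GM-CSF locus also drives the recombinase iCre and blue fluorescent protein, and iCre switches on eYFP at Rosa26. YFP therefore stays on in a cell that has made GM-CSF, whether or not it still does, and all 4 groups carried both alleles. CD4+ T cells were sorted into naïve (CD44-) and effector memory (TEM, CD44hi) cells and both were then divided by YFP, which gave 12 libraries in 4 groups of 3. No treatment or age is given in the labels of these libraries, and whether a replicate was 1 animal or a pool is not stated there, so p-values measure the spread between these libraries.

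TLRs bind conserved microbial molecules through leucine-rich repeats and signal through a cytoplasmic TIR domain, mostly by way of the adaptor MyD88, to NF-kB and interferon regulatory factors. Tlr2 pairs with Tlr1 or Tlr6 at the cell surface to bind bacterial lipopeptides, Tlr4 binds lipopolysaccharide together with MD-2, and Tlr3, Tlr7 and Tlr9 sense nucleic acids from within endosomes. Tlr11 and Tlr12, also endosomal, bind the profilin of Toxoplasma. Nlrp3 is a cytosolic sensor that assembles an inflammasome with ASC and caspase-1, which matures IL-1β and IL-18. Most of these receptors are best known from macrophages, dendritic cells and B cells, while T cells are known to carry several of them at lower levels.

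Values are normalized counts, which are reads divided by a size factor of each library. Group values are given as mean ± SD (n = 3 libraries), and differences as log2 fold changes on log2 of the value plus 1, with the standard error (SE). Calls come from a limma fit of all 12 libraries, without pairing by replicate number, at an adjusted p (Benjamini-Hochberg, 15587 genes) of at most 0.05. The residual spread of a gene is pooled over the 4 groups, so the SE of a TEM difference also holds the spread of the naïve libraries. With 3 libraries on each side the smallest p of an exact permutation test is 0.1, so the calls draw on variance shared across genes. Each library had 40974124 to 57822269 reads on genes. The labels fitted the sorting marker Cd44, which averaged 2831 in YFP- naïve and 22010 in YFP- TEM cells. In these bulk libraries, fewer cells of a type and less RNA per cell cannot be told apart. Replicate 2 of the YFP+ naïve group stood apart, since 14 marker genes of monocytes, macrophages and neutrophils summed to 7841 in it and to between 597 and 1684 in the other naïve libraries. It was also the highest of its group for 7 of the 10 members, so several results are given with and without it.

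In TEM cells, 4 of the 10 genes were lower in the YFP+ than in the YFP- fraction (Tlr2, Tlr9, Tlr11 and Nlrp3) and 1 was higher (Tlr12). The background was 4.67% of all tested genes called lower and 2.3% called higher. Since the set was chosen with earlier results known, setting it beside this background is not a test. The largest decreases were those of Tlr11, Nlrp3 and Tlr9, each between 8.71-fold and 12.2-fold on the scale used. The other 5 genes, Tlr1, Tlr6, Tlr4, Tlr3 and Tlr7, did not pass in this unpaired fit. With the replicate number as a block, Tlr1 and Tlr6 were called lower as well (adjusted p = 0.019 and 0.035 by limma). The median log2 fold change was -0.79 over the members and -0.01 over all genes.

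The promoters of the 5 called members are shown because the results turn on them, 4 that were lower and Tlr12, the 1 that was higher. Each runs from 250 bases before to 50 bases after the RefSeq start site on GRCm38.p6, the assembly behind mm10, and is written 5′ to 3′ on the gene's own strand. Capitals mark matches, on either strand, to GAGGAA (the core of PU.1 and SpiB sites), to the E-box CAGGTG, to the core of interferon regulatory factor (IRF) sites, which is GAAA, any 2 bases and GAAA, and to an NF-kB consensus.
Tlr2, chr3:83841559-83841858, minus strand: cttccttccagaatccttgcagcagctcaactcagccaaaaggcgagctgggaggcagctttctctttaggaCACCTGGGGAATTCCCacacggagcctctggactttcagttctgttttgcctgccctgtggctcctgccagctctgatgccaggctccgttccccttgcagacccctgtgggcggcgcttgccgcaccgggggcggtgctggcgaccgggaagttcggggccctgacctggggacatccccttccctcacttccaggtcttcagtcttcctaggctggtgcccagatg
Tlr9, chr9:106222348-106222647, plus strand: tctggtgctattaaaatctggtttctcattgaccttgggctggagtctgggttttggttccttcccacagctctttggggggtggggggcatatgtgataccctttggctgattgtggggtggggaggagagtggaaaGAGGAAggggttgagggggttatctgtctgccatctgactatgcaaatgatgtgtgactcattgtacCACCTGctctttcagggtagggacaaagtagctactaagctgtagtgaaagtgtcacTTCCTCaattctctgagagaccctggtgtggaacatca
Tlr11, chr14:50357664-50357963, plus strand: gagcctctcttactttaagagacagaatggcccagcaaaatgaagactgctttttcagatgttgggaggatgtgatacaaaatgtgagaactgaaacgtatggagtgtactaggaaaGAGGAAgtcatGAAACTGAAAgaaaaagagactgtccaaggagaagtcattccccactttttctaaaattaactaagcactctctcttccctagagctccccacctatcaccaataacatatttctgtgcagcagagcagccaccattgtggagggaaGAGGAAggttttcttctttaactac
Nlrp3, chr11:59542436-59542735, plus strand, the first of 2 RefSeq promoters: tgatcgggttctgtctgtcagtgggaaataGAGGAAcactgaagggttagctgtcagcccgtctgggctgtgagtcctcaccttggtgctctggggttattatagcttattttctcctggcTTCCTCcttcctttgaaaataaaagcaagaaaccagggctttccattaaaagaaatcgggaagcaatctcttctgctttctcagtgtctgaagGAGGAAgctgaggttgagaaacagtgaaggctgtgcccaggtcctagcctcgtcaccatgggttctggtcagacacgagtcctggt
Tlr12, chr4:128618570-128618869, minus strand: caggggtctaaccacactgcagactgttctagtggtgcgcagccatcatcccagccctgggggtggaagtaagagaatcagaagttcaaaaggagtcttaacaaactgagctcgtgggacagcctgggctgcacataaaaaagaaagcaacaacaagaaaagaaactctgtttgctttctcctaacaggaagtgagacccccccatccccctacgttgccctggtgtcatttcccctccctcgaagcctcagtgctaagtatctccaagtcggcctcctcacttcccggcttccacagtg

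GAGGAA had 2 matches in Tlr9, 2 in Tlr11 and 3 in the Nlrp3 promoter shown. It had 0 in Tlr2, which was also lower, in Tlr12 and in the other Nlrp3 promoter. That other promoter, at chr11:59541319-59541618, lies upstream of the one shown and spans the start of the gene. The one shown is first in the order of listing and not by position. Of 32851 RefSeq promoters of this length, 28.3% held GAGGAA, 20.2% held CAGGTG, 3.44% held the IRF core and 5.8% held an NF-kB consensus. Tlr9 also held 1 E-box and Tlr11 held 1 IRF core. Among the members with a promoter entry, 8 of 10, Tlr1 held 1 GAGGAA and 1 E-box, and Tlr2 held an E-box directly followed by an NF-kB match. Tlr6 held 2 overlapping IRF cores, and Tlr3 and the other Nlrp3 promoter held 1 NF-kB match each. A match is a description of letters in this window and not a binding site. Tlr4 and Tlr7 had no entry.

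Of the endosomal receptors, Tlr9, the sensor of unmethylated CpG DNA (Entrez 81897, chr9:106222598-106226876), had 1662, 1140 and 2733 normalized counts in the 3 YFP- TEM libraries, 1845 ± 812. The YFP+ TEM libraries had 209, 207 and 179, which is 198 ± 17.1. Every YFP- library lay far above every YFP+ library, and the log2 fold change was -3.12 (SE 0.41, adjusted p = 6.7e-04). The call held in all 12 fits that left out 1 library, with log2 fold changes from -3.42 to -2.79.

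Tlr7 (Entrez 170743, chrX:167303380-167330574), which senses single-stranded RNA from the same compartment, did not follow Tlr9. It had 987, 779 and 1445 normalized counts in YFP- TEM cells and 1353, 781 and 844 in YFP+ TEM cells. The groups overlapped, and the log2 fold change was -0.11 with a 95% confidence interval from -0.74 to 0.52 (adjusted p = 0.94). Tlr7 is X-linked, and replicate 3 differed from the others in sex: Xist reached at most 24.7 in replicate 3 of every group against 11870 or more elsewhere. Tlr7 in replicate 3 was the highest of the YFP- TEM group and the lowest of the YFP+ naïve group, so it was not low throughout.

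Tlr3, which senses double-stranded RNA and signals through TRIF (Entrez 142980, chr8:45395665-45411075), was low in every library. Its normalized counts were 43.5, 66.7 and 86.6 in YFP- TEM cells and 44.5, 42.5 and 28.5 in YFP+ TEM cells. A single YFP- library lay within the range of the YFP+ libraries, and the log2 fold change of -0.73 (SE 0.43, adjusted p = 0.48) did not pass.

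The profilin sensors moved in opposite directions. Tlr11 (Entrez 239081, chr14:50357914-50363663) had 91.0, 98.6 and 256 normalized counts in YFP- TEM cells and 12.1, 4.14 and 18.1 in YFP+ TEM cells, with no overlap. The log2 fold change of -3.61 had an SE of 0.89 (adjusted p = 0.027). That SE also holds the spread of the naïve libraries, which had 0 to 5.90. The call was lost on leaving out any 1 YFP- TEM library (adjusted p = 0.063, 0.062 and 0.15 without replicates 1, 2 and 3) or YFP+ TEM replicate 1 or 2 (0.07 and 0.095), and the direction did not change.

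Tlr12 (Entrez 384059, chr4:128615446-128618619) had 201, 133 and 276 normalized counts in YFP- TEM cells and 659, 294 and 613 in YFP+ TEM cells. The lowest YFP+ library, replicate 2, lay just above the highest YFP- library. The log2 fold change was 1.33 (SE 0.31, adjusted p = 0.020), and it missed the threshold without YFP- TEM replicate 1 or 2 (adjusted p = 0.065 and 0.088) and without YFP+ TEM replicate 1 or 3 (0.1 and 0.098). Replicate 2 was also the lowest YFP+ TEM library for Klrb1c, which encodes the NK receptor NK1.1 (1403, 870 and 1640 normalized counts), and for the B cell gene Cd79a (265, 72.5 and 265). Both were higher in YFP+ than in YFP- TEM cells, where they averaged 154 and 45.6 (adjusted p = 0.0037 and 0.038), and their part in the Tlr12 difference was not tested. Of 4 NK and 10 B cell markers, however, 1 and 3 had a log2 fold change below 0, and none of these was called. They were Eomes (527 in YFP- and 391 in YFP+ TEM cells), Cd79b (343 and 231), Cd22 (2237 and 1040) and Blk (57.8 and 49.6). Tlr11 and Tlr12 are close relatives, and how the counting treated reads that match both was not given in the sources used here.

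At the cell surface, Tlr2 (Entrez 24088, chr3:83836272-83841824), the shared partner in lipopeptide sensing, had 376, 356 and 645 normalized counts in YFP- TEM cells, 459 ± 162. The YFP+ TEM libraries had 142, 189 and 157, which is 162 ± 23.9. The groups did not overlap, and the log2 fold change was -1.45 (SE 0.23, adjusted p = 0.0018). This call, too, held in all 12 fits without 1 library.

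Its partners Tlr1 and Tlr6 did not pass in the fit without pairing. Tlr1 (Entrez 21897, chr5:64924680-64933600) had 2800, 2880 and 3319 normalized counts in YFP- TEM cells and 1727, 2433 and 2097 in YFP+ TEM cells. Tlr6 (Entrez 21899, chr5:64953092-64970942) had 395, 432 and 602 against 305, 308 and 326. In both genes every YFP+ library was below every YFP- library, yet the log2 fold changes were small, -0.53 for Tlr1 (SE 0.22, adjusted p = 0.22) and -0.58 for Tlr6 (SE 0.23, adjusted p = 0.20). With the replicate number as a block both were called, at adjusted p = 0.019 and 0.035. Tlr1 and Tlr6 are neighbouring, similar genes, and Tlr6 overlaps Fam114a1 and Mir574, so reads could be split between them.

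Tlr4, the lipopolysaccharide receptor (Entrez 21898, chr4:66827551-66846581), had 196, 259 and 366 normalized counts in YFP- TEM cells. In YFP+ TEM cells it had 146, 200 and 106. Replicate 2 of the YFP+ group reached the range of the YFP- group, and the log2 fold change of -0.86 had an SE of 1.04 (adjusted p = 0.80). That SE also holds the spread of the naïve libraries, where Tlr4 had 0 to 32.5 normalized counts. A fit of the 6 TEM libraries alone did not call Tlr4 either.

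Nlrp3 (Entrez 216799, chr11:59541569-59566955) had 404, 311 and 716 normalized counts in YFP- TEM cells, 477 ± 212, and 37.4, 33.1 and 44.7 in YFP+ TEM cells, 38.4 ± 5.83. The lowest YFP- library was well above the highest YFP+ library. The log2 fold change was -3.52 (SE 0.80, adjusted p = 0.017), and the SE also holds the spread of the naïve libraries, which had 0 to 42.3. The difference missed the threshold in 5 of the 12 fits without 1 library: without YFP- TEM replicate 1 or 3 (adjusted p = 0.059 and 0.098) and without YFP+ TEM replicate 1, 2 or 3 (0.059, 0.052 and 0.051).

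**Figure D1:**
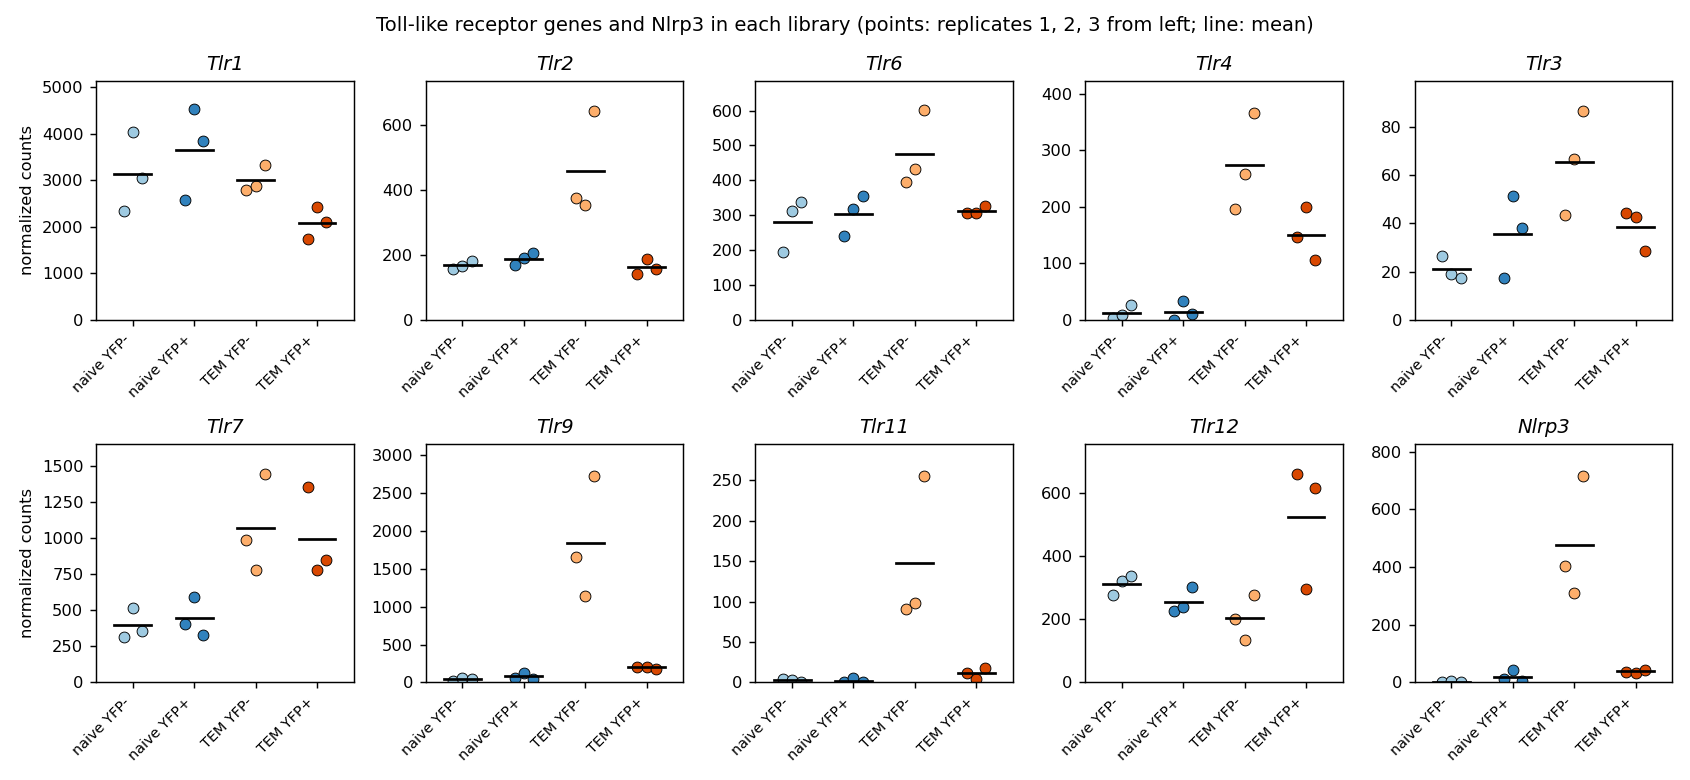
Normalized counts (vertical axes, linear, starting at 0) of the 10 genes in each of the 4 groups; points are replicates 1, 2 and 3 from left to right and lines are group means. Tlr9, Tlr11 and Nlrp3 stood highest in the 3 YFP- TEM libraries, Tlr12 in YFP+ TEM replicates 1 and 3, and Tlr7 overlapped between the TEM groups (779 to 1445 and 781 to 1353).

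Markers of several other cell types also differed between the TEM fractions. Their counts stand beside backgrounds of 4.67% of all tested genes called lower and 2.3% called higher. Of 11 markers of conventional dendritic cells, 10 were lower in YFP+ than in YFP- TEM cells and 0 higher (6 and 0 without YFP- TEM replicate 3), and their sum ran from 3132 to 5264 in YFP+ TEM, from 19850 to 39010 in YFP- TEM and from 1432 to 2588 in naïve libraries. Flt3, a growth factor receptor of dendritic cells, averaged 2594 in YFP- and 135 in YFP+ TEM cells, Itgax, which encodes CD11c, 8001 and 465, and Clec9a, a lectin of cross-presenting dendritic cells, 131 and 4.96. Of 12 markers of plasmacytoid dendritic cells, 8 were lower and 0 higher (7 and 1 without YFP+ TEM replicate 2). Siglech, which defines these cells, had 3367, 1412 and 3263 normalized counts in the YFP- TEM libraries and 118, 26.9 and 55.1 in the YFP+ TEM libraries, and it was at 0 in 2 of 3 YFP- naïve libraries. The plasmacytoid sum ran from 18030 to 24950 in YFP- TEM, from 12850 to 13170 in YFP+ TEM and from 8876 to 9895 in naïve cells, with Pacsin1 alone at 6099 in YFP- naïve cells. Ccr9 was the 1 gene of this list with a log2 fold change above 0. It averaged 975 in YFP- and 2442 in YFP+ TEM cells (log2 1.28, adjusted p = 0.096).

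Markers of monocytes, macrophages and neutrophils did not move one way. Of 14 such genes, 4 were lower in YFP+ TEM cells (Itgam, Adgre1, Cd68 and Ly6c2) and 1 was higher (Ccr2), while 8 had a log2 fold change above 0 and the median was 1.72. S100a8 and S100a9, which are typical of neutrophils, averaged 0.494 and 1.48 in YFP- and 28.7 and 49.1 in YFP+ TEM cells (adjusted p = 0.10 and 0.13). A fit of the 6 TEM libraries alone called 6 higher and 4 lower, and DESeq2 with the replicate block 4 and 4. Without YFP- TEM replicate 1 or 3 or YFP+ TEM replicate 2 or 3 the count was 0 higher and 2 lower, without YFP+ naïve replicate 2 it was 3 and 4, and the call of Ccr2 was lost without any 1 YFP- naïve or TEM library. The sums overlapped, from 8382 to 15600 in YFP+ and from 11220 to 18460 in YFP- TEM cells. Ccr2 alone was a large part of the YFP+ sums, with 7276, 4476 and 7710 normalized counts. In the YFP- TEM libraries it had 1955, 1747 and 1804, so the overlap depends on this gene.

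B cell markers had 2 of 10 higher, while the sums were lower (1516 to 2211 against 2327 to 3414). The sums went against most of the list, as 7 genes had a log2 fold change above 0 and the median was 1.42. Cd22 was the largest part of the YFP- TEM sums (2106, 1842 and 2763 normalized counts). In the YFP+ TEM libraries it had 890, 1106 and 1124. The count of B cell markers called higher was 5 without YFP+ TEM replicate 2 and 1 without any other TEM library or YFP- naïve replicate 3. NK cell markers had 3 of 4 higher (sums of 1362 to 2057 against 603 to 794), and 1 without any 1 YFP+ TEM library. Both CD8 markers were lower (187 to 373 against 686 to 1490), and 1 of them without YFP- TEM replicate 1 or 3. None of 8 markers of CD4 T cells was called, though 1 was higher with the replicate number as a block and without YFP+ naïve replicate 2, and their sums lay between 227800 and 281900 in all TEM libraries. Within the YFP- TEM group, replicate 3 was the highest and replicate 2 the lowest for Tlr9, for Nlrp3 and for the summed markers of conventional dendritic cells, of monocytes, macrophages and neutrophils and of B cells. Tlr11 was also highest in replicate 3 but lowest in replicate 1, and the plasmacytoid sum was highest in replicate 1. The part of these other cells in the TLR and Nlrp3 differences was not tested.

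**Figure D2:**
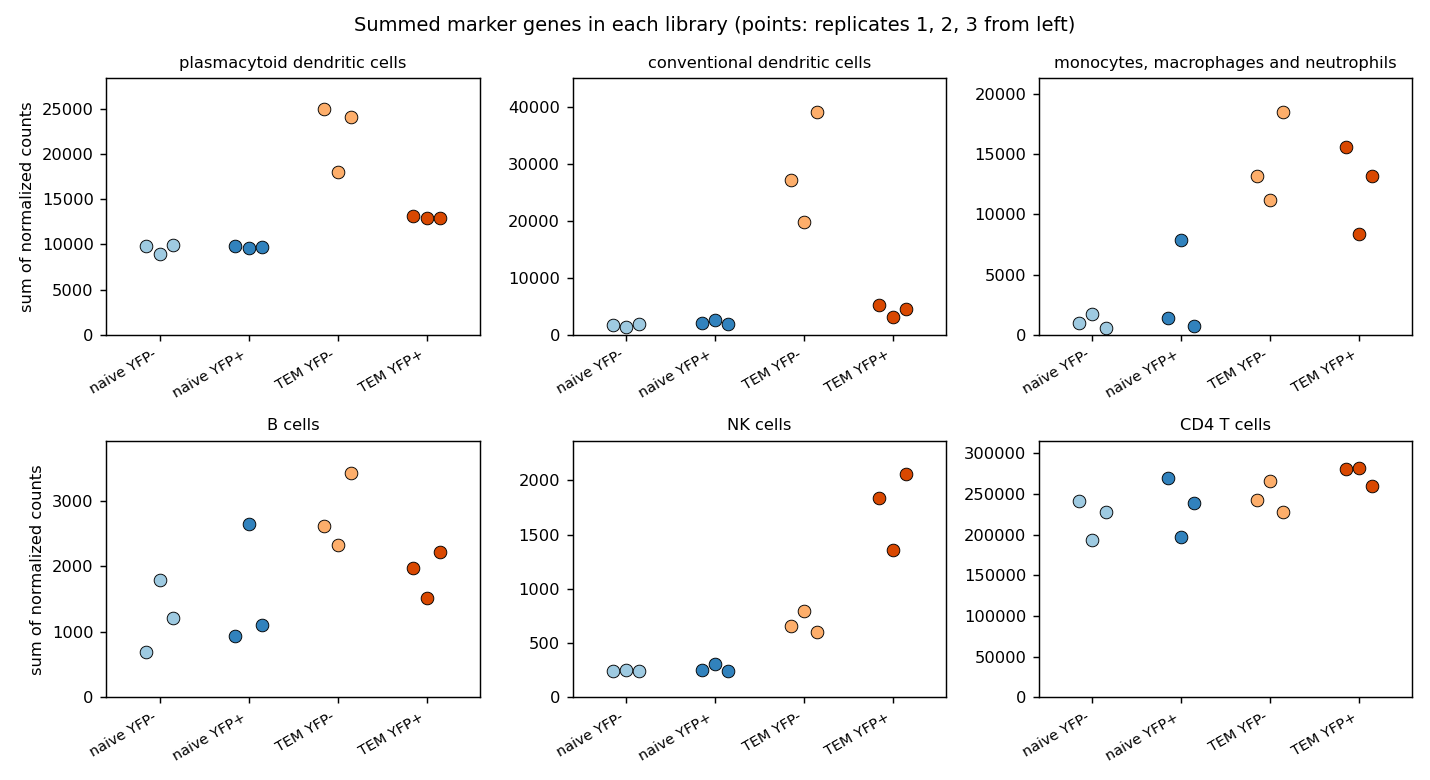
Summed normalized counts (vertical axes, linear) of 6 marker lists in each library of the 4 groups; points are replicates 1, 2 and 3 from left to right. Conventional dendritic cell markers were highest in YFP- TEM libraries (19850 to 39010), and YFP+ naïve replicate 2 reached 7841 for monocyte, macrophage and neutrophil markers.

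In naïve cells, 0 of the 10 genes were called between the YFP+ and YFP- fractions, where 0.00642% of all genes were called higher and 0% lower. At an unadjusted p of 0.05 or less, 1 member and 518 genes (3.32%) passed, and edgeR and DESeq2 also called 0 members. The member that passed was Nlrp3, with 0, 6.37 and 0 normalized counts in YFP- naïve cells and 11.1, 42.3 and 5.58 in YFP+ naïve cells. Its lowest YFP+ library was under its highest YFP- library. The log2 fold change was 2.96 (SE 0.80, adjusted p = 0.95), and 2.20 without YFP+ naïve replicate 2, the library high in monocyte, macrophage and neutrophil markers, whose part was not tested.

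Tlr9 had 25.3, 60.5 and 48.4 normalized counts in YFP- naïve cells and 59.4, 131 and 50.2 in YFP+ naïve cells. With an SE of 0.41 its log2 fold change was 0.78 (adjusted p = 1) with all libraries and 0.37 without YFP+ naïve replicate 2, its highest library. Tlr4, with 2.30, 8.49 and 25.3 in YFP- and 0, 32.5 and 10.2 in YFP+ naïve cells, and Tlr11, with 4.61, 3.18 and 0 against 0, 5.90 and 0, were near the lower limit of the counts in both fractions.

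The more abundant receptors overlapped between the naïve fractions. Tlr1 had 2337, 4043 and 3054 normalized counts in YFP- and 2575, 4528 and 3835 in YFP+ naïve cells, so that replicate 1 was the lowest and replicate 2 the highest in both. Tlr7 had 316, 516 and 355 against 406, 592 and 331, with replicate 2 highest in both. These 2 genes differed more between replicates than between fractions, with log2 fold changes of 0.21 for Tlr1 (95% confidence interval -0.27 to 0.69) and 0.15 for Tlr7 (-0.48 to 0.78). Without YFP+ naïve replicate 2 they were 0.035 for Tlr1 and -0.077 for Tlr7.

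Tlr2 had 156, 167 and 181 normalized counts in YFP- and 169, 192 and 205 in YFP+ naïve cells, and the fractions overlapped (log2 fold change 0.17, interval -0.32 to 0.66). Tlr6 had 194, 313 and 338 against 241, 317 and 354 (0.13, interval -0.37 to 0.64). Tlr12 had 276, 320 and 338 against 226, 239 and 301 (-0.29, interval -0.97 to 0.39). The intervals of these 3 genes left out a change of 1 log2 unit in either direction, that of Tlr12 narrowly. Tlr3 had 26.5, 19.1 and 17.3 against 17.3, 51.2 and 38.1 (0.63, interval -0.31 to 1.57, and 0.31 without YFP+ naïve replicate 2).

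**Figure D3:**
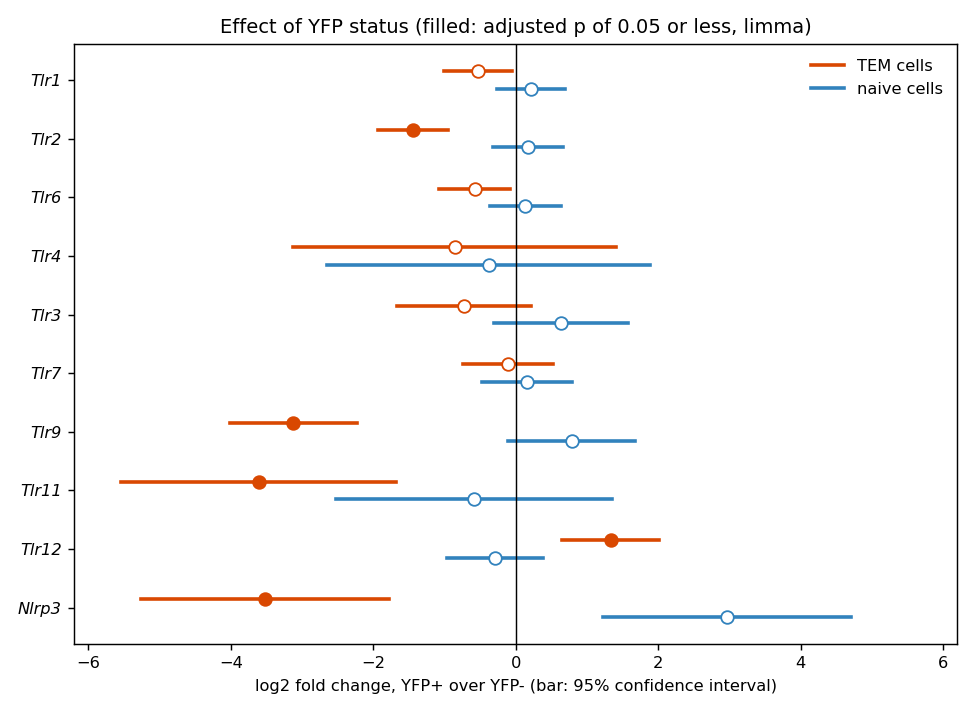
Log2 fold change of YFP+ over YFP- cells (horizontal axis) for each gene in TEM and in naïve cells, with 95% confidence intervals as bars; filled points have an adjusted p of 0.05 or less by limma. In TEM cells 4 genes were called lower and Tlr12 higher, while in naïve cells 0 were called and the widest intervals belonged to Tlr4 (-2.65 to 1.89) and Tlr11 (-2.52 to 1.34).

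The difference between the YFP effect in TEM cells and that in naïve cells was tested as an interaction. It was called lower for Tlr9 (log2 -3.91, SE 0.58, adjusted p = 0.0044), Tlr2 (-1.62, SE 0.32, adjusted p = 0.016) and Nlrp3 (-6.48, SE 1.13, adjusted p = 0.0088), against 2.73% of all genes called lower, and for 0 members higher, against 0.828%. All 3 calls held in every fit without 1 library, and without YFP+ naïve replicate 2 the values were -3.49, -1.60 and -5.72. The size for Nlrp3 rests partly on naïve libraries with at most 6 reads in the YFP- group. Tlr11 and Tlr12, called between the TEM fractions, had interactions of -3.02 (adjusted p = 0.33) and 1.62 (adjusted p = 0.072). That of Tlr12 was called with the replicate number as a block (adjusted p = 0.020), by DESeq2 without and with a block (0.0089 and 3.7e-04), under quantile normalization (0.026) and without YFP+ TEM replicate 2 (0.013), and that of Tlr11 with a prior count of 5 (0.027).

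Between memory and naïve cells of the YFP- fraction, 8 of the 10 genes were higher in TEM cells and 0 lower, with backgrounds of 29.9% and 19.9% of all genes. This comparison shares the YFP- TEM libraries with the one above. The median log2 fold change was 1.49 over the members and 0.05 over all genes. Nlrp3 went from 2.12 ± 3.68 to 477 ± 212 normalized counts (log2 7.85, SE 0.80, adjusted p = 5.0e-06), Tlr11 from 2.60 ± 2.36 to 148 ± 93.0 (5.54, SE 0.89, adjusted p = 2.2e-04) and Tlr9 from 44.7 ± 17.9 to 1845 ± 812 (5.33, SE 0.41, adjusted p = 5.3e-07). These folds start from few reads in Nlrp3 and Tlr11 and depend on the 1 added to each value.

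Tlr4 was a further gene that was near the lower limit in naïve cells and well covered in TEM cells, from 12.1 ± 11.9 to 274 ± 85.8 (log2 4.82, adjusted p = 0.0020). Smaller increases were those of Tlr3 (1.57, adjusted p = 0.0091), Tlr7 (1.42, adjusted p = 0.0014), Tlr2 (1.40, adjusted p = 2.4e-04) and Tlr6 (0.77, adjusted p = 0.015). The increase of Tlr6 missed the threshold without YFP- naïve replicate 1 (adjusted p = 0.063) or YFP- TEM replicate 3 (0.071). Tlr1 had a log2 fold change of -0.04 (95% confidence interval -0.51 to 0.44). Tlr12 was lower in each YFP- TEM library than in each YFP- naïve library (-0.67, adjusted p = 0.094) and was called with the replicate number as a block (adjusted p = 0.033), without YFP- TEM replicate 3 (0.038) or without YFP+ TEM replicate 2 (0.035).

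In the YFP+ fraction, 5 of the 10 genes were higher in TEM than in naïve cells and 1, Tlr1, was lower, with backgrounds of 24.7% and 16.7%. The increases were those of Tlr4 (log2 4.34, adjusted p = 0.0051), Tlr11 (2.51, adjusted p = 0.038), Tlr9 (1.42, adjusted p = 0.015), Tlr7 (1.16, adjusted p = 0.0065) and Tlr12 (0.95, adjusted p = 0.027). Tlr1 fell by 0.78 on the log2 scale (adjusted p = 0.013). Without YFP+ naïve replicate 2 the log2 fold changes were 5.45, 3.44, 1.84, 1.39, 0.91 and -0.61, in the order given. Tlr4, Tlr7, Tlr9 and Tlr11 were called higher in TEM cells of both fractions, and of these Tlr9 had a called interaction.

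Several of these calls rested on single libraries. Tlr11, at 1.97 ± 3.41 in YFP+ naïve and 11.4 ± 6.98 in YFP+ TEM cells, passed in 6 of 12 fits without 1 library, and the lost fits were those without YFP+ naïve replicate 1 or 3 (adjusted p = 0.12 and 0.13), YFP- TEM replicate 1 or 2 (both 0.05 after rounding) and YFP+ TEM replicate 1 or 3 (0.096 and 0.13). Tlr12 missed the threshold without YFP+ naïve replicate 1 or 2 (0.075 and 0.061) and without YFP+ TEM replicate 1 or 3 (0.11 and 0.1), Tlr9 without YFP+ naïve replicate 3 (0.063) and Tlr1 without YFP+ TEM replicate 1 (0.054). Nlrp3 had a log2 fold change of 1.37 (adjusted p = 0.19), which passed without YFP+ naïve replicate 2 (2.13, adjusted p = 0.045).

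Over all genes, quantile normalization moved the median log2 fold change of TEM against naïve cells to -0.20 in the YFP- and -0.14 in the YFP+ fraction, from 0.05 and 0.03. It changed the split of calls from 4665 higher and 3104 lower to 3585 and 5925 in YFP- cells, and from 3849 and 2604 to 3063 and 4626 in YFP+ cells. Under it Tlr6 and Tlr3 lost their increases in YFP- cells (log2 0.16 and 0.06), Tlr12 was called lower there (-1.57), and in YFP+ cells Tlr9, Tlr11 and Tlr12 lost theirs while Tlr2 was called lower (-0.89). Between the TEM fractions it moved the split over all genes from 359 higher and 728 lower to 686 and 806, and the replicate block moved it to 814 and 1055, with 1 member higher under both and 4 and 6 members lower.

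Levels were compared between genes per kb of annotated exon. Tlr1 was the most abundant of the 10 in each group, from 1090 ± 296 normalized counts per kb in YFP+ naïve to 623 ± 106 in YFP+ TEM cells, and did not overlap the second gene in any group. In YFP- TEM cells Tlr9 came second (531 ± 234 per kb), followed by Tlr7 (262 ± 83.6), Tlr2 (152 ± 53.6), Tlr6 (128 ± 29.7) and Nlrp3 (118 ± 52.3), and each of these neighbours overlapped the next. In YFP+ TEM cells Tlr7 came second (243 ± 76.8) with Tlr12 next (164 ± 62.6) and overlapping it, then Tlr6 (84.0 ± 3.05), Tlr9 (57.0 ± 4.91) and Tlr2 (53.8 ± 7.94). Tlr9 and Tlr2 overlapped there, while Tlr6 lay above Tlr9 in every library.

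In naïve cells 4 receptors lay behind Tlr1, and Tlr12, Tlr7 and Tlr6 each overlapped the next in YFP- cells (98.0 ± 9.92, 96.9 ± 26.0 and 75.5 ± 20.7 per kb). Tlr2 followed at 55.6 ± 4.22 per kb, and Tlr9 (12.9 ± 5.13) was below it in every library. The other 4 genes, Tlr3, Tlr4, Tlr11 and Nlrp3, lay at or below 4.03 per kb on average in YFP- and at or below 6.83 in YFP+ naïve cells, and in both their neighbours in the order overlapped.

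**Figure D4:**
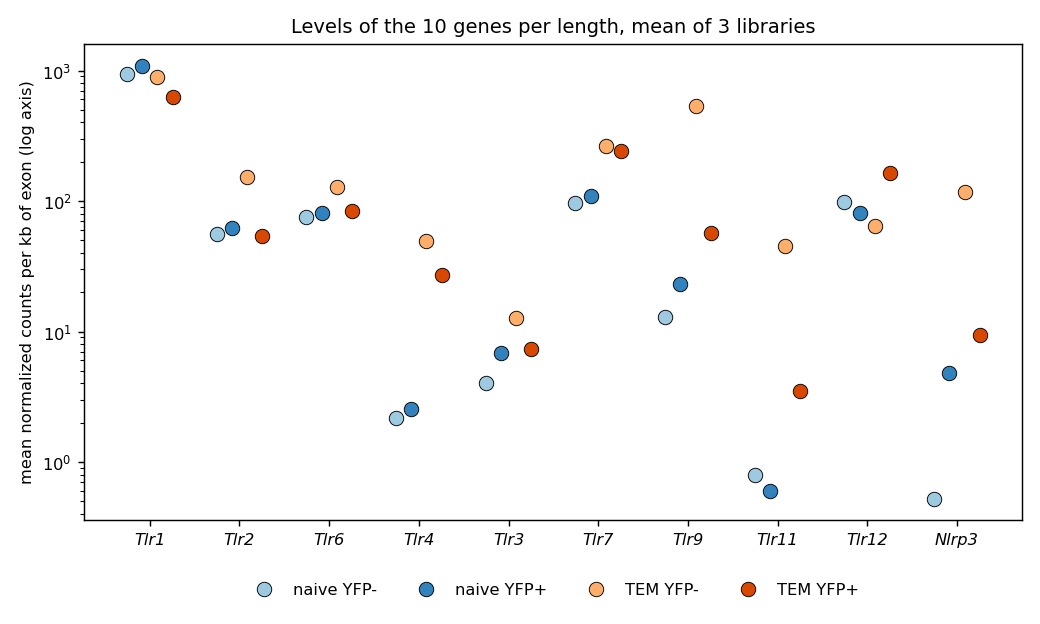
Mean normalized counts per kb of exon (vertical axis, log scale) of each gene in the 4 groups, n = 3 libraries each. Tlr1 lay highest in all groups (623 to 1090 per kb), and Tlr9 ranged from 12.9 in YFP- naïve to 531 in YFP- TEM cells.

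The other TLR genes of the mouse were read in the same way. Tlr5, the flagellin receptor, had 199, 77.1 and 282 normalized counts in YFP- TEM cells and 10.1, 4.14 and 10.5 in YFP+ TEM cells (log2 -4.24, SE 0.70, adjusted p = 0.0025). Tlr13, which senses bacterial ribosomal RNA, had 1048, 778 and 1565 against 103, 37.3 and 151 (-3.68, SE 0.64, adjusted p = 0.0033). In both genes the groups were far apart. Tlr8, a relative of Tlr7, had 61.5, 52.6 and 92.7 against 55.6, 24.9 and 53.2 (-0.66, adjusted p = 0.86). It reached 91.5 in YFP+ naïve replicate 2 and at most 13.6 in the other naïve libraries.

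Of 13 co-receptor and transport genes, 7 were lower in YFP+ than in YFP- TEM cells and 0 higher, with a median log2 fold change of -0.67. The background was 4.67% lower and 2.3% higher, and without YFP- TEM replicate 3 the count was 4 lower. DESeq2 with the replicate block called 8 lower and 1 higher, and the 6 TEM libraries alone gave 6 and 1. In the reported fit 5 of the 13 had a log2 fold change above 0. Among them, Cd14 had 32.8, 36.3 and 21.4 in YFP- and 239, 115 and 97.9 in YFP+ TEM cells (2.20, adjusted p = 0.36). Cd180, a TLR-like surface protein, went from 787 ± 442 to 63.4 ± 36.7 (log2 -3.64, adjusted p = 0.0023) and Ly86, which encodes its partner MD-1, from 1381 ± 520 to 124 ± 43.8 (-3.47, adjusted p = 0.0013). Unc93b1, the chaperone that carries nucleic acid sensing TLRs to endosomes, had 7912, 5948 and 10120 normalized counts in YFP- and 2888, 2337 and 2454 in YFP+ TEM cells (-1.62, adjusted p = 0.0098). The proteases Ctsl (-1.80, adjusted p = 0.0013) and Lgmn (-0.86, adjusted p = 0.039), which can cleave these receptors in endosomes, were lower as well. Ly96, which encodes MD-2, the partner of Tlr4, averaged 120 in YFP- and 117 in YFP+ TEM cells.

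Of 32 adaptor and signalling genes, 3 were lower (9.38%) and 1 higher (3.12%), beside backgrounds of 4.67% and 2.3%, and the median was 0.01. The tyrosine kinases Btk (591 ± 208 to 71.5 ± 14.2, log2 -2.99, adjusted p = 0.0055) and Syk (3287 ± 1377 to 456 ± 196, -2.87, adjusted p = 0.0046) and the transcription factor Irf5 (3132 ± 829 to 1071 ± 179, -1.52, adjusted p = 0.018) were lower. Irak3, a negative regulator of TLR signalling, was higher, with 304, 263 and 301 normalized counts in YFP- and 1276, 608 and 779 in YFP+ TEM cells (1.55, adjusted p = 0.0021). Myd88, the adaptor of most TLRs, averaged 4122 ± 524 and 3775 ± 118 (-0.12, adjusted p = 0.66).

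Of 27 tested inflammasome and NOD-like receptor genes among 29 listed, 4 were lower (14.8%, background 4.67%) and 0 higher, with a median of -0.26. The 4 were Mefv, which encodes pyrin (1248 ± 390 to 72.1 ± 18.5, log2 -4.08, adjusted p = 9.6e-04), the adaptor Card9 (387 ± 160 to 24.6 ± 3.43, -3.86, adjusted p = 6.8e-05), Nlrp10 (110 ± 35.4 to 7.25 ± 2.17, -3.73, adjusted p = 3.4e-04) and Nod2, a sensor of muramyl dipeptide (727 ± 160 to 319 ± 34.8, -1.17, adjusted p = 0.0068). With the replicate number as a block, 5 were lower and 3 higher, and the 6 TEM libraries alone gave 7 lower. The partners of Nlrp3 were Pycard, which encodes ASC (2876 and 2592 on average, adjusted p = 0.60), and Casp1 (2626 and 2192, adjusted p = 0.81), and neither passed. Il1b averaged 318 ± 153 in YFP- and 52.8 ± 26.0 in YFP+ TEM cells (-2.56, adjusted p = 0.26).

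In these 4 lists 0 genes were called between the naïve fractions by limma, and 1 by DESeq2 with the replicate block. Between YFP- TEM and YFP- naïve cells, 3 of 3 other TLR genes, 10 of 13 co-receptor and transport genes, 12 of 32 adaptor and signalling genes and 21 of 27 inflammasome and NOD-like receptor genes were higher, while 0, 0, 6 and 1 were lower. The backgrounds were 29.9% and 19.9%, and the adaptor and signalling genes, at 37.5% and 18.8%, lay near them, with 13 higher and 10 lower with the replicate number as a block, which also gave 2 lower inflammasome and NOD-like receptor genes. In YFP+ cells the counts were 1, 4, 10 and 17 higher and 0, 1, 7 and 2 lower, with backgrounds of 24.7% and 16.7% and shares of 31.2% and 21.9% for the adaptor and signalling genes. The 7 lower genes of that list were 4 without YFP+ TEM replicate 1 or 3. Of the other TLR genes 2 were higher without YFP+ naïve replicate 2 or YFP+ TEM replicate 2, and of the co-receptor and transport genes 2 were lower without YFP+ naïve replicate 3 or YFP- TEM replicate 3.

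**Figure D5:**
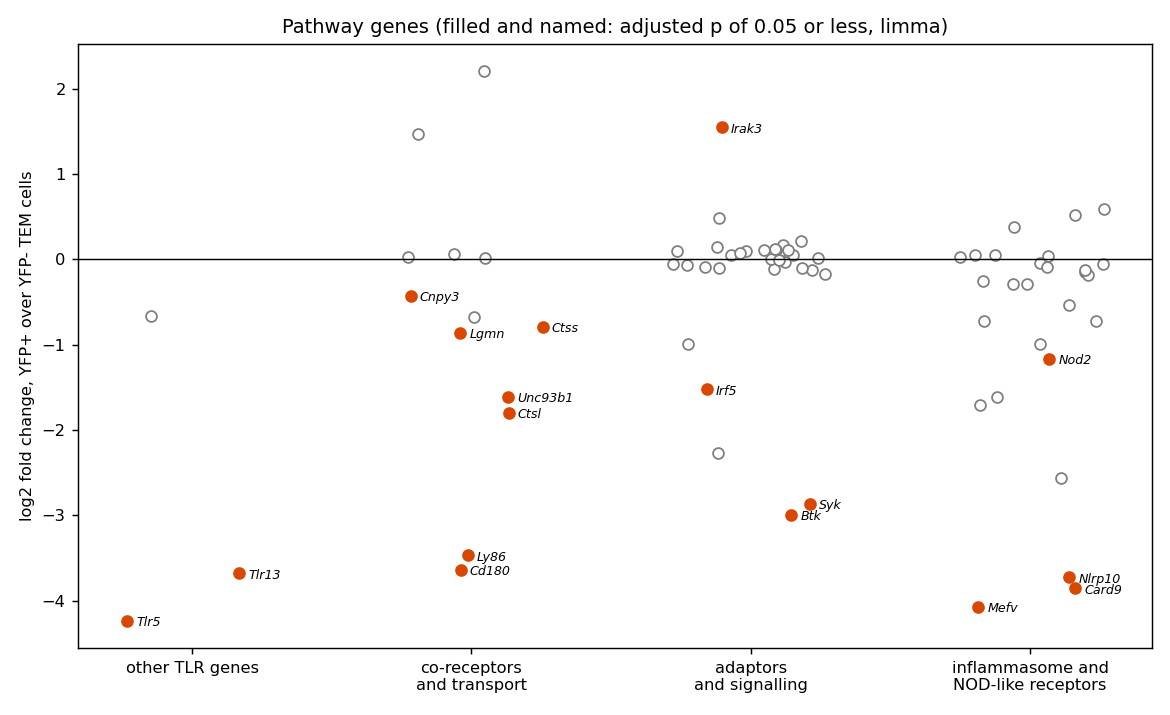
Log2 fold change of YFP+ over YFP- TEM cells (vertical axis) for the tested genes of 4 pathway lists; each point is a gene, spread sideways for legibility, and filled, named points have an adjusted p of 0.05 or less by limma. Called genes lay mostly below 0 (2 of 3, 7 of 13, 3 of 32 and 4 of 27), and Irak3 was the 1 gene called higher.

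Across the 12 libraries, the log2 values of Tlr9 and Nlrp3 had a Pearson correlation of 0.952 and those of Tlr9 and Tlr11 of 0.912. Tlr1 correlated with the other members by -0.481 (Tlr12) to 0.307 (Tlr6), and Tlr12 by -0.536 (Tlr2) to 0.196 (Tlr7). The tested genes most like Tlr9 were Strip2 (0.995), Mefv (0.994) and Aph1c (0.993), those most like Nlrp3 were Cxcl16 (0.993), Pira1 (0.984) and Slc7a7 (0.980), and those most like Tlr11 were Kif9 (0.980), Rab31 (0.973) and Ifitm3 (0.971). For Tlr12 they were Actn2 (0.952), Cd72 (0.918) and Eya2 (0.915), and for Tlr1 they were Hps3 (0.969), Stx17 (0.929) and Gpn1 (0.928). Man2b1 was closest to Tlr2 (0.971), Acp2 to Tlr4 (0.972), Frmd4b to Tlr7 (0.954) and Slc15a4, an endolysosomal transporter on the co-receptor and transport list, to Tlr6 (0.938). These values describe 12 points in 4 groups and carry no test, since libraries of 1 group share their sorting gate.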

How the data were processed

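The authors sequenced total RNA of 12 libraries with a stranded kit, mapped the reads to mm10 with DRAGEN, counted them with Rsubread and divided the counts by DESeq2 size factors. The deposited signal is therefore a normalized count. Tool versions, annotation and strand setting are not given in the sources used here. Scaled back, 100% of values were whole reads within 1e-06. RefSeq on GRCm38.p6 named 16749 of 17523 genes. Log2 of the value plus 1 was analysed in limma 3.58.1 (R 4.3.3) by group means with a variance trend, for genes with at least 5 in at least 3 libraries. The scripts were tested on simulated data. Alternatives were other prior counts, filters and normalizations, no trend, the 6 compared libraries alone, an absolute log2 fold change of 1, edgeR 4.0.16 and DESeq2 1.42.0 on recovered reads, the replicate number as a block, and leaving out each library.

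Members and lists were chosen with earlier results of these data known. Named were all 10 members, the other TLR genes, called genes of each list with a mean of at least 20 (up to 5 per direction) and the genes (mean of at least 50) most correlated with each member. Uncalled partners and single markers were chosen after their values were seen. Some results that fall under these choices are left out. After removal of group means, same-numbered libraries correlated by 0.18 to 0.356 between TEM fractions, 0.306 to 0.491 between naïve fractions, 0.137 to 0.232 between YFP- naïve and TEM cells and -0.0199 to 0.204 between YFP+ naïve and TEM cells. By this measure the libraries of the first 3 comparisons were paired. The reported fit did not use the pairing, and the fits with the replicate number as a block are given as alternatives.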

Additional observations from a re-analysis of the deposited data

Results flagged for a closer look

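For 3 genes the effect of YFP status in TEM cells differed from that in naïve cells by a test of the difference itself (the interaction in limma, log2 scale). It was -1.617 for Tlr2 (adjusted p = 0.016), -3.905 for Tlr9 (adjusted p = 0.0044) and -6.479 for Nlrp3 (adjusted p = 0.0088). All of these were lower in YFP+ TEM cells in 3 of 3 libraries, and between naïve fractions they were not called.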

How the results depend on the processing

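With a prior count of 0.1, the number of members called between the TEM fractions was 3 in place of 5, as Tlr11 (adjusted p = 0.31) and Nlrp3 (0.19) missed the threshold. Leaving out 1 library gave 2 to 5 members there, 0 between the naïve fractions, 7 to 9 and 3 to 6 (without YFP+ TEM replicate 1) for TEM against naïve cells in YFP- and YFP+ cells, and 3 to 4 for the interaction. In the TEM comparison Tlr2 and Tlr9 passed in all 25 fits, Tlr12 in 20, Nlrp3 in 19 and Tlr11 in 18. A fit of the 6 compared libraries alone called Tlr1 (adjusted p = 0.044) and not Tlr12 (0.064).

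With the replicate number as a block, 5 members had a called interaction in place of 3, by limma and by DESeq2 (Tlr1 and Tlr12 in addition, adjusted p = 0.036 and 0.020 by limma). Beside the calls of Tlr1, Tlr6 and Tlr12 already given, the block in limma changed no other call of a member.

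Directions changed only in differences that were not called. For Tlr4 between naïve fractions, edgeR gave 0.28, DESeq2 0.26 and DESeq2 with the block 0.10, and its interaction was 0.46 with a prior count of 0.1. Quantile normalization gave -0.38 for Tlr6 and -0.78 for Tlr3 between YFP+ TEM and naïve cells. Leaving out 1 library gave -0.35 to 0.13 for Tlr7 between TEM fractions. Between naïve fractions it gave -0.11 to 0.29 for Tlr6, -1.49 to 1.05 for Tlr4 and -0.077 to 0.36 for Tlr7. Between TEM and naïve cells it gave -0.23 to 0.16 for Tlr1 (YFP-), -0.10 to 0.18 for Tlr6 (YFP+) and -0.22 to 0.53 for Tlr3 (YFP+), and for the interaction of Tlr4 -1.91 to 0.62. The cause of these changes was not tested. Of 1189 comparisons of a member with an alternative, 1109 kept direction and side of the threshold.

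Over all genes, calls between the TEM fractions numbered 1087 in the reported fit, 1869 with the block, 2416 by DESeq2 with the block, and 696 and 574 without YFP- TEM replicates 1 and 3. For the interaction they numbered 554, with 890 under the block, 838 by DESeq2, 1241 by DESeq2 with the block (436 higher and 805 lower against 129 and 425), and 316, 267 and 368 without YFP- TEM replicates 1 and 3 and YFP+ TEM replicate 1. Between naïve fractions they were 1 in the reported fit and 0 to 61 elsewhere. Depth limits Tlr4, Tlr11 and Nlrp3 in naïve cells, where some libraries had 0 reads.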
